A study of Mus musculus with 9 samples.

Results

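The meniscus and the cruciate ligaments, the fibrous tissues of the knee, were compared together with the articular cartilage of the same joint. The comparison took the mean of the meniscus mean and the ligament mean, with equal weight, minus the cartilage mean, and asked which genes differed from cartilage in the same direction in both fibrous tissues. It used 9 of the 9 arrays of the series, 3 for each of the 3 tissues. All samples came from hindlimbs of embryonic day 16 mice of the CD-1 strain, with no treatment or mutation named in the labels, and the groups differ by tissue: meniscus, cruciate ligament and articular cartilage. The RNA was extracted with a PicoPure kit, treated with DNase, amplified with an Ovation Pico whole-transcriptome system, labelled with biotin and hybridised to Illumina bead arrays, which read 1 signal per probe and array. Nothing in the labels says that the arrays of a tissue came from separate embryos, so the p-values rest on the spread between these samples alone, and that spread may be technical.

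The tissues of the knee arise from a common field of mesenchymal cells. Chondrocytes are driven by the transcription factors Sox9, Sox5 and Sox6 and lay down a matrix of type II, IX and XI collagens and the proteoglycan aggrecan, whereas tendon and ligament cells lay down bundles of type I collagen fibrils, dressed by small leucine-rich proteoglycans and joined by lysyl oxidases. The adult meniscus has features of both, and it and the ligaments carry blood vessels that articular cartilage lacks. In whole-tissue RNA, fewer cells of a type and less RNA per cell cannot be told apart.

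The meniscus arrays detected 28.9% to 31.9% of probes, the ligament arrays 18% to 20.9% and the cartilage arrays 29.4% to 35.6%, at a detection p under 0.01. The ligament arrays formed a set of their own, with median scanner signals of 147.4 to 209.7, against 93.4 to 103.8 on the meniscus and cartilage arrays, so set and tissue cannot be told apart for the ligament. The difference of meniscus from cartilage lies within 1 set, and it was also fitted on those 6 arrays alone. The ligament arrays also varied more: the median SD over genes was 0.249 log2 for meniscus, 0.502 for ligament and 0.259 for cartilage. After joint normalization, the median named gene differed from cartilage by 0.03 log2 in meniscus, by −0.23 in ligament and by −0.11 in the mean of both. Under cyclic loess normalization these medians were 0.02, −0.04 and −0.02. With no filter on dim probes they were 0.01, 0.03 and 0.03, and with only probes detected on all 9 arrays 0.05, −0.02 and 0. The ligament shift thus depended on which probes were kept as well as on the normalization. All differences from cartilage below are therefore given on the log2 scale relative to the median named gene of their contrast, and the p-values belong to the differences before that centring.

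Of 7234 named genes tested, 104 rose in both fibrous tissues (1.44%) and 186 fell in both (2.57%), by limma's moderated test with an adjusted p under 0.05 and the same sign in each tissue. All 290 kept their fitted sign in both tissues relative to the median gene. That includes genes for which a tissue was not above background on any array, where the fitted sign is not a measured direction. With genes of opposite signs in the tissues included, 107 were higher (1.48%) and 191 lower (2.64%). The 8 genes of opposite signs were as follows: Galnt14, Kng2 and Zc3hav1 were higher in the mean of both, and Anxa7, Atad2, Col8a1, Dhrs7b and Kctd20 were lower. On 92 of the 104 rises all 6 fibrous arrays lay above all 3 cartilage arrays, and on 141 of the 186 falls all 6 lay below. Over all named genes, 3.76% lay apart above and 5.46% apart below. The smallest difference that passed was 0.778 log2 before centring.

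Of the falls 77 were measured in all 3 tissues and of the rises 99. Among these, relative to the median gene, the ligament stood further from cartilage than the meniscus in 53 of the 77 falls and 76 of the 99 rises. Against cartilage by themselves, 47 of the 290 genes passed in the meniscus and 270 in the ligament. Both tissues passed on 19 rises and 20 falls. In the ligament, 820 named genes were lower than cartilage (11.3%) and 278 higher (3.84%). In the meniscus, 25 were lower (0.346%) and 30 higher (0.415%). That fit shares 1 estimate of the spread with the ligament arrays, and on the 6 meniscus and cartilage arrays alone 113 genes fell in meniscus and 145 rose. For 107 of the 186 falls no ligament array read above background, and for 18 no meniscus array did. In that case a difference is a bound and is written as "at least", relative to the median gene.

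The counts changed when single arrays were left out. Without cartilage replicate 1, 2 or 3 there were 24, 9 or 47 rises and 41, 23 or 55 falls. Without meniscus replicate 1, 2 or 3 there were 63, 44 or 39 rises and 95, 75 or 69 falls. Without ligament replicate 1 there were 154 rises and 288 falls, and without ligament replicate 3 there were 158 and 281. Of the 78 genes that passed and are named here by rule, 0 changed direction under the 17 or 18 alternatives run for each gene, and 16 kept the call under all of them: Mfap4, Igfbp3, Aspn, Igf1, Col4a1, Foxa3, Cytl1, Wif1, Cnmd, Snorc, Fam180a, Gli1, Matn3, Frzb, Id4 and Fgfr2. Of these 16, Fgfr2 did not pass in the meniscus by itself (adjusted p = 0.0559), while the other 15 passed in each tissue by itself. The other 62 of the 78 lost the call under at least 1 alternative, and 61 of them did so without cartilage replicate 2.

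**Figure D1:**
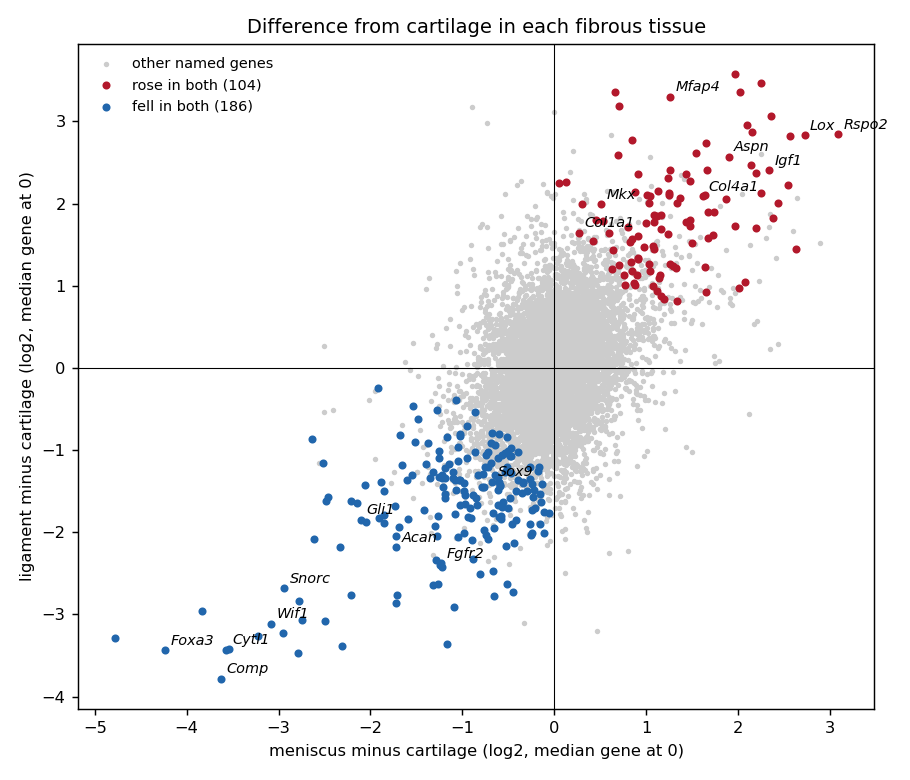
Each point is a named gene, with its meniscus minus cartilage difference across and its ligament minus cartilage difference up, both in log2 with the median gene at 0 and as measured, also where a tissue was not above background. Red points are the 104 genes that rose in both fibrous tissues, blue points the 186 that fell, and the axes share the cartilage arrays, so the slope of the cloud is in part built in.

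The promoters of 6 of these 16 genes are shown, 3 that fell and 3 that rose, to give the sequence in front of genes that moved together. These are the first 3 of each direction that have 1 promoter entry, and each is the 250 bases before the annotated gene start in RefSeq, build GRCm38.p6, read 5′ to 3′ along the strand of the gene. Capitals mark matches, on either strand, to ACAANG, a form of the core letters that SOX factors bind, and to TATAAA, the TATA box. No position overlapped between the 2 motifs.

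Foxa3, which fell (chr7:19023540-19023789, minus strand): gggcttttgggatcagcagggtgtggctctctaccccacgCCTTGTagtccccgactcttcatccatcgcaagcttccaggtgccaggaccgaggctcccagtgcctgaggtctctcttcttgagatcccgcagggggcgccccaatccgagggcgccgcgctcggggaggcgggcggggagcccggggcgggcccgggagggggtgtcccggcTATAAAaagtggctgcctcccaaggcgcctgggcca

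Cytl1, which fell (chr5:37735269-37735518, plus strand): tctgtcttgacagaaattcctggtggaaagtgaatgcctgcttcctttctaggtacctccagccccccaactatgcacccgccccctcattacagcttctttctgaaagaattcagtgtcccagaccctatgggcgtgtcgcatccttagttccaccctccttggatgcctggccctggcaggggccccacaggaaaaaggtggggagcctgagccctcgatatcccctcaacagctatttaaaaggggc

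Wif1, which fell (chr10:121033754-121034003, plus strand): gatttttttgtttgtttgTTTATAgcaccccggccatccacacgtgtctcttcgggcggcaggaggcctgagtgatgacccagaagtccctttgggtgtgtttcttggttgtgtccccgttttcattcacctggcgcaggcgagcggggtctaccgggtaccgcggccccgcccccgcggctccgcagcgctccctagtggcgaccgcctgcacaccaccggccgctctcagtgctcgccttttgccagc

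Igf1, which rose (chr10:87860861-87861110, plus strand): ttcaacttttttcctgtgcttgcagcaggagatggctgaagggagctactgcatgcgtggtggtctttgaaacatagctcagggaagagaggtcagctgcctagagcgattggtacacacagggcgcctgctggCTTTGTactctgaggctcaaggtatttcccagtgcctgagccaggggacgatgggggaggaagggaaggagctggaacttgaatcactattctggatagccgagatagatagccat

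Igfbp3, which rose (chr11:7213924-7214173, minus strand): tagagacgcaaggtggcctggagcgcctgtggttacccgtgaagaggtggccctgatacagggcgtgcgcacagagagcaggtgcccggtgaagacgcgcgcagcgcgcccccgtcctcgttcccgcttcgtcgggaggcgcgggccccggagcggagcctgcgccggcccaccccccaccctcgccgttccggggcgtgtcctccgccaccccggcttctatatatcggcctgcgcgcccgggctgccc

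Aspn, which rose (chr13:49544193-49544442, plus strand): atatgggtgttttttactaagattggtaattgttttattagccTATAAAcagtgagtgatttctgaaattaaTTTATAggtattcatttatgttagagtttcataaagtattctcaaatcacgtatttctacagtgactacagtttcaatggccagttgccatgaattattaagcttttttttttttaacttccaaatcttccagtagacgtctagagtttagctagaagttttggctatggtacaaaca

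ACAANG was found in the promoters of Foxa3 and Igf1, each time on the reverse strand. TATAAA was found in Foxa3 on the forward strand, in Wif1 on the reverse strand and in Aspn on both strands. Neither set of letters was found in the windows of Cytl1 and Igfbp3. Promoter entries were available for 5894 of the 7234 tested genes. ACAANG occurred in 41 of the 152 falls with an entry (27%), in 28 of the 77 rises (36.4%) and in 28.4% of all tested genes. TATAAA occurred in 12 of 152 falls (7.89%), in 12 of 77 rises (15.6%) and in 6.62% of all tested genes. These shares are descriptions, and a match is not a binding site.

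The matrix of hyaline cartilage was lower in both fibrous tissues. Of 22 tested genes of the cartilage matrix list, 16 fell and 0 rose, and all 22 had a difference below 0, with a median of −2.11 log2. The median was −2.28 in meniscus and −2.13 in ligament. For this and every list below, the share over all named genes was 1.44% for rises and 2.57% for falls. Small counts are not read as results about a list. Comp, cartilage oligomeric matrix protein, which binds collagen fibrils, read 7.53, 8.60 and 9.54 log2 in meniscus and 8.27, 6.91 and 9.22 in ligament, against 11.85, 12.67 and 11.92 in cartilage. Every fibrous array lay below every cartilage array. The difference of Comp was −3.69 ± 0.55 (SE, adjusted p = 0.00984 in limma), a 12.9-fold lower level, and on the 6 meniscus and cartilage arrays alone the meniscus difference was −3.59 before centring (adjusted p = 0.00776). Its 2 probes gave −3.80 and −3.50 before centring. The adjusted p of Comp without cartilage replicate 2 was 0.064, and the call of the list was then 4 of 22, against 7 without cartilage replicate 1, 8 without cartilage replicate 3 and 10 without meniscus replicate 2. Without ligament replicate 3, 18 fell.

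All 3 chains of collagen IX, the collagen that coats type II fibrils, fell. Col9a1 read 6.88, 7.11 and 8.03 on meniscus arrays and 6.29, 5.66 and 9.62 on ligament arrays, against 10.50, 11.28 and 10.75 on cartilage arrays. Ligament replicate 3 stood well above the other ligament arrays for Col9a1, and still below cartilage. Of the ligament arrays 2 were above background for Col9a1 and 1 for Col9a3. The difference was −3.47 ± 0.75 for Col9a1 (adjusted p = 0.0352), −2.34 ± 0.37 for Col9a2 (adjusted p = 0.0106) and −2.80 ± 0.53 for Col9a3 (adjusted p = 0.0202). Within the 6 meniscus and cartilage arrays all 3 chains passed, with differences of −3.50, −2.58 and −2.75 before centring. Leaving out cartilage replicate 2 put the adjusted p of Col9a2 at 0.068 and that of Col9a3 at 0.109, and the call of each was lost without cartilage replicate 1 too. Col9a3 kept its call under 11 of 17 alternatives. Col9a1 was not called without any 1 of the meniscus or cartilage arrays (adjusted p 0.0657 to 0.158), or with no filter on dim probes (adjusted p = 0.1).

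Matrilins, adaptor proteins that link collagen fibrils to proteoglycans, followed. Matn3 read 4.60, 4.50 and 4.60 on meniscus arrays and 4.42, 4.44 and 4.56 on ligament arrays, against 6.32, 7.06 and 6.38 on cartilage arrays. Only cartilage was above background, so Matn3 was at least 1.97-fold lower in the mean of the fibrous tissues (fitted difference −1.96 ± 0.20, adjusted p = 0.00327). The bound was 2.86-fold in meniscus and 1.37-fold in ligament. Matn4 was measured everywhere, at 8.93, 9.49 and 10.36 in meniscus and 10.47, 10.53 and 11.06 in ligament, against 11.91, 12.30 and 12.02 in cartilage, a difference of −1.83 ± 0.31 (adjusted p = 0.0128). Matn1 had the most negative value of the list, −4.03 ± 0.89 (adjusted p = 0.0375), with a wide spread in ligament, where it read 5.55, 7.45 and 10.08 and 2 of 3 arrays were above background. Matn1 was not called without any 1 of the meniscus or cartilage arrays (adjusted p 0.0522 to 0.169), without ligament replicate 2 (adjusted p = 0.0513) or with no filter on dim probes (adjusted p = 0.106). Matn4 did not pass without any 1 of the cartilage replicates (adjusted p 0.0566 to 0.0753).

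Acan, aggrecan, which swells cartilage with water, and Hapln1, the link protein that holds it to hyaluronan, both fell. Acan read 7.99, 7.36 and 7.86 in meniscus and 7.64, 7.03 and 6.35 in ligament, against 9.14, 9.84 and 9.28 in cartilage. Its difference was −1.94 ± 0.31 (adjusted p = 0.0106), and that of Hapln1 was −1.81 ± 0.44 (adjusted p = 0.0443). No fibrous array reached the cartilage range for Acan. Hapln1 was not called without any 1 of the meniscus or cartilage arrays (adjusted p 0.0811 to 0.19), without ligament replicate 2 (0.0532), with centred arrays (0.0542), with the replicate block (0.0764) or with no filter on dim probes (0.112). The second probe of Acan gave −0.89 before centring against −2.05 for the one used, and the mean of both probes had an adjusted p of 0.0582.

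Small secreted and membrane proteins of chondrocytes fell too. Cytl1, a cytokine-like protein of cartilage, read 4.73, 5.24 and 5.56 in meniscus and 4.56, 4.51 and 6.08 in ligament, against 8.06, 9.45 and 8.62 in cartilage. Cnmd, chondromodulin, which restrains blood vessel growth, read 6.61, 5.53 and 6.75 in meniscus and 6.37, 5.01 and 5.87 in ligament, against 9.04, 9.59 and 9.0 in cartilage. Both were far below cartilage on every fibrous array. Cytl1 was above background on 2 meniscus arrays and 1 ligament array, and Cnmd on 1 ligament array. Cytl1 differed by −3.49 ± 0.42 (adjusted p = 0.00487) and Cnmd by −3.08 ± 0.36 (adjusted p = 0.00449). Snorc, a small chondrocyte proteoglycan, was above background in cartilage only, at 7.66, 7.94 and 7.01, against 4.42, 4.80 and 4.68 in meniscus and 4.68, 4.66 and 4.53 in ligament. That placed Snorc at least 3.82-fold lower in the mean of the fibrous tissues (fitted difference −2.80 ± 0.23, adjusted p = 0.00103). The bound was 5.53-fold in meniscus and 2.66-fold in ligament. Ucma, Prelp, Mia and Scrg1 fell by 3.39, 2.90, 1.87 and 2.25 log2, with 1, 2, 3 and 1 ligament arrays above background. Scrg1 differed between the fibrous tissues, at 7.90, 8.17 and 8.25 in meniscus and 4.55, 7.37 and 5.0 in ligament (meniscus minus ligament adjusted p = 0.0322).

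The falls outside the matrix list included enzymes and secreted proteins. Fam180a, a predicted secreted protein, read 6.47, 5.79 and 6.35 in meniscus and 5.49, 5.49 and 5.07 in ligament, against 8.52, 8.84 and 8.63 in cartilage. The ligament was not above background, and Fam180a was at least 5.69-fold lower in the mean of the fibrous tissues (fitted difference −2.78 ± 0.21, adjusted p = 0.000937). Fbp2, a fructose bisphosphatase of gluconeogenesis, Lgals3, the lectin galectin-3, and Ldlrad3, a membrane receptor of the LDL receptor class, fell by 3.23, 2.84 and 2.25 log2, with 1, 2 and 2 ligament arrays above background. Those 3 genes were not called without cartilage replicate 1 or 2, and Fbp2 and Lgals3 were not called without cartilage replicate 3 either.

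**Figure D2:**
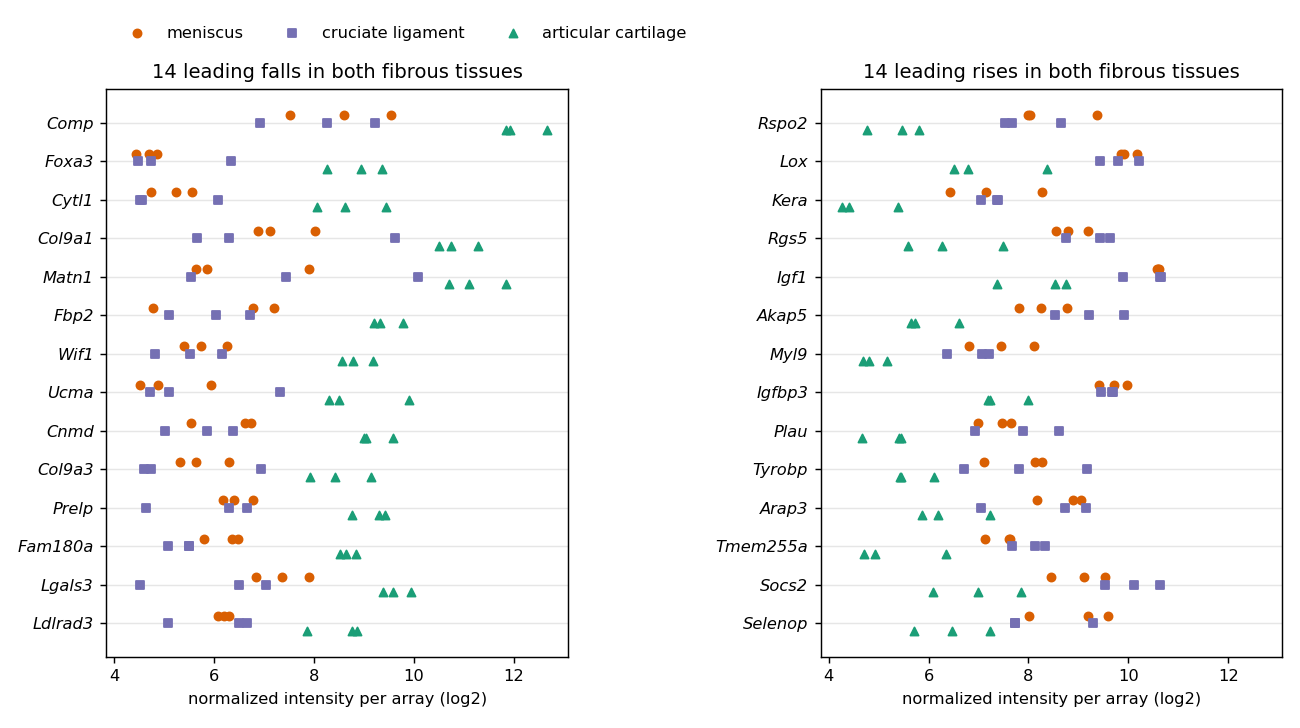
Each row is a gene and each mark an array, placed at its normalized log2 intensity. Circles are meniscus, squares ligament and triangles cartilage, with the 14 leading falls on the left and the 14 leading rises on the right. Among the 28 genes Arap3 alone has arrays of a fibrous tissue and of cartilage that overlap.

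Several transcription factors of chondrocytes were lower in the mean of the fibrous tissues. Of 13 tested regulators, 7 fell and 0 rose, with a median difference of −0.88. The sign was the same in both tissues for 9 of the 13, and 1 passed in each tissue by itself. Foxa3, a forkhead factor of hypertrophic chondrocytes and liver, read 4.69, 4.44 and 4.85 in meniscus and 4.74, 4.47 and 6.34 in ligament, against 8.95, 9.35 and 8.26 in cartilage. It was above background on 0 meniscus arrays and on 1 ligament array, and the fall was at least 12.2-fold (fitted difference −3.83 ± 0.41, adjusted p = 0.00334). Sox9, the master factor of chondrocytes, remained well above background in both fibrous tissues. It read 11.82, 11.28 and 11.39 in meniscus and 10.37, 10.38 and 10.80 in ligament, against 12.08, 12.17 and 12.17 in cartilage. The arrays of the tissues did not overlap, and the difference of Sox9 was −0.67 in meniscus (adjusted p = 0.31), −1.39 in ligament (adjusted p = 0.0034) and −1.02 ± 0.19 for both (adjusted p = 0.0169).

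The partners of Sox9 in the chondrocyte programme fell as well. Sox5 read 8.05, 8.61 and 8.26 in meniscus and 7.13, 6.56 and 6.85 in ligament, against 8.91, 9.30 and 9.31 in cartilage, a difference of −1.49 ± 0.21 (adjusted p = 0.00806). The 6 probes of Sox5 ranged from −1.81 to −0.24 before centring. Sox6, above background on 1 array of each fibrous tissue, differed by −1.24 ± 0.28 (adjusted p = 0.0341). For Sox5 and Sox9 the meniscus lay between ligament and cartilage, and the meniscus was higher than the ligament (adjusted p = 0.00814 and 0.0235). Dlx5, a homeobox factor of skeletal cells, Foxc2, a forkhead factor of mesenchyme, and Sox8, a relative of Sox9, also passed. In meniscus by itself Sox5, Sox6, Dlx5 and Foxc2 did not pass (adjusted p 0.181, 0.0597, 0.275 and 0.175 in limma). Dlx5 read 6.71 on meniscus replicate 1, above cartilage replicate 2 at 6.64. Dlx5 was at least 1.98-fold lower and Foxc2 at least 1.55-fold lower, both with no ligament array above background. Sox8 was above background in cartilage only, too dim there for a bound in the ligament (fitted difference −0.88). Sox8 and Foxc2 lost the call under cyclic loess normalization. Only 1 of the 13 regulators passed without cartilage replicate 2, against 2 without cartilage replicate 1, 3 without cartilage replicate 3 or meniscus replicate 3 and 4 without meniscus replicate 1 or 2.

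Of 6 tested hedgehog genes, 3 fell: Gli1, Ptch1 and Smo. Indian hedgehog is a signal of prehypertrophic chondrocytes; Ptch1 is its receptor and a target of the pathway, Smo the transducer that Ptch1 restrains, and Gli1 a transcription factor and target. Gli1 read 5.53, 5.57 and 5.45 in meniscus and 5.02, 5.64 and 5.86 in ligament, against 8.04, 7.33 and 7.38 in cartilage. No ligament array was above background for Gli1, which was at least 3.41-fold lower (fitted difference −1.97 ± 0.25, adjusted p = 0.00492). Ptch1 read 5.81, 6.10 and 6.18 in meniscus and 5.20, 7.58 and 7.11 in ligament, against 8.88, 8.20 and 8.36 in cartilage, a difference of −2.04 ± 0.46 (adjusted p = 0.0372), with 2 ligament arrays above background. Smo had a fitted difference of −0.77 ± 0.16 (adjusted p = 0.0227), was not above background in ligament and lost the call under cyclic loess normalization. Gli2, Gli3 and Sufu had differences of −0.45, −0.24 and 0.17 and did not pass. Ihh, the ligand itself, was not above background on any array. Without any 1 of the meniscus or cartilage arrays only Gli1 of the 6 was called.

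Of 11 tested Wnt genes 2 fell, both secreted inhibitors, and 1 rose. Wif1, Wnt inhibitory factor, read 6.26, 5.39 and 5.73 in meniscus and 6.16, 5.51 and 4.81 in ligament, against 9.18, 8.78 and 8.57 in cartilage. Frzb, a secreted frizzled-related protein, read 5.67, 6.42 and 6.39 in meniscus and 6.24, 6.51 and 6.44 in ligament, against 8.01, 8.66 and 8.15 in cartilage. Of the ligament arrays, 1 was above background for Wif1 and 3 for Frzb. Both inhibitors were far lower on every fibrous array, by −3.09 ± 0.32 for Wif1 (adjusted p = 0.0033) and −1.89 ± 0.24 for Frzb (adjusted p = 0.00515). Rspo2, an R-spondin that strengthens Wnt signalling at its receptors, read 9.38, 7.99 and 8.03 in meniscus and 7.53, 7.66 and 8.66 in ligament, against 5.80, 4.76 and 5.46 in cartilage. It was higher on all 6 fibrous arrays, by 2.98 ± 0.40 (adjusted p = 0.00924) or 7.87-fold, and led the rises, with 2 cartilage arrays above background. Its adjusted p was 0.0593 without cartilage replicate 2. The median of the list was −0.86, and Axin2 and Lef1, targets or effectors of the pathway, were too dim on too many arrays to be tested. Without ligament replicate 3, 5 of the 11 fell, and without ligament replicate 1 or 2, 3 fell.

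Fgfr2, a receptor for fibroblast growth factors, fell. It read 9.66, 9.48 and 9.61 in meniscus and 8.52, 7.78 and 8.22 in ligament, against 10.84, 10.75 and 10.74 in cartilage. The arrays formed 3 separate levels, with the meniscus in the middle. The difference was −1.79 ± 0.20 (adjusted p = 0.00334), and the meniscus was higher than the ligament (adjusted p = 0.00695). Its 3 probes ranged over −1.90 to −0.79 before centring.

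Of 18 tested FGF and IGF genes, 3 rose and 1 fell, and all 3 rises belong to the IGF system. Igf1, insulin-like growth factor 1, read 10.59, 10.62 and 10.57 in meniscus and 10.66, 10.63 and 9.88 in ligament, against 8.76, 7.37 and 8.53 in cartilage. Igfbp3, which binds and carries IGFs, read 9.41, 9.97 and 9.71 in meniscus and 9.45, 9.69 and 9.67 in ligament, against 7.18, 7.22 and 7.99 in cartilage. All fibrous arrays lay above every cartilage array for both genes. Igf1 differed by 2.38 ± 0.32 (adjusted p = 0.00924, 5.20-fold) and Igfbp3 by 2.29 ± 0.23 (adjusted p = 0.00334, 4.90-fold). The second probe of each gave a larger difference, 3.04 for Igf1 and 2.67 for Igfbp3 before centring. Igfbp4, another binding protein, rose by 1.88 ± 0.33 (adjusted p = 0.0227). Igf2, Igf1r, Igfbp2 and Igfbp5 had values of 0.07, −1.02, −0.70 and −0.34 and did not pass. Socs2, an inhibitor of growth hormone signalling, rose by 2.70 ± 0.41 (adjusted p = 0.0128), and its call and that of Igfbp4 were lost without cartilage replicate 1 or 2. Igfbp4 kept its call under 13 of 18 alternatives.

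Of 30 tested TGF-beta and BMP genes, 1 rose and 2 fell, with a median of 0.03, against 1.44% and 2.57% of all named genes. Id4, an inhibitor of DNA binding and a BMP target, read 4.54, 4.54 and 4.74 in meniscus and 4.63, 4.55 and 5.59 in ligament, against 6.65, 6.84 and 6.84 in cartilage. It was not above background on any fibrous array and was at least 2.26-fold lower (fitted difference −1.91 ± 0.25, adjusted p = 0.00589). The bound of Id4 was 3.27-fold in meniscus and 1.57-fold in ligament. Gdf10, a BMP family ligand, was not above background in ligament and was at least 2.56-fold lower (adjusted p = 0.0107), with a call lost without cartilage replicate 2 (adjusted p = 0.0598). Chrdl1, a chordin-like BMP antagonist, was above background in ligament only, at 6.84, 6.37 and 6.64, against 4.70, 4.47 and 4.89 in meniscus and 4.65, 4.58 and 4.57 in cartilage. Its rise is thus a ligament rise, at least 3.44-fold over cartilage there (adjusted p = 0.0014), and the meniscus value gives no direction. Chrdl1 was not called without meniscus replicate 3 or any 1 cartilage replicate. Without ligament replicate 1, 3 genes of the list rose and 3 fell.

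Genes of the sulphated glycosaminoglycan chains that fill cartilage fell in part. Of 18 tested, 4 fell and 0 rose, with a median of −0.34. Papss2, which makes the sulphate donor, read 7.42, 7.68 and 7.27 in meniscus and 7.08, 7.32 and 7.18 in ligament, against 8.26, 9.30 and 8.75 in cartilage, a difference of −1.34 ± 0.24 (adjusted p = 0.0152). The sulphate transporter Slc26a2, the xylose kinase Fam20b and the UDP-glucose dehydrogenase Ugdh also fell. Slc26a2 was at least 2.04-fold lower and Fam20b at least 1.41-fold lower, with no ligament array above background, and Ugdh differed by −0.80. In ligament the bounds of Slc26a2 and Fam20b were 1.57-fold and 1.11-fold. Ugdh also differed between the tissues, at 7.97, 7.66 and 7.63 in meniscus and 6.61, 5.99 and 6.58 in ligament, against 7.99, 7.97 and 7.98 in cartilage. The meniscus thus overlapped with cartilage for Ugdh, and the call was lost under cyclic loess normalization. With cartilage replicate 2 or 3 left out, 0 of the 18 passed, and with meniscus replicate 3 or cartilage replicate 1 left out, 1 and 2 did.

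Genes of glycolysis and the response to low oxygen were mostly lower, few of them past adjustment. Of 26 tested, 4 fell and 0 rose, with a median of −0.52, and 16 were lower at an unadjusted p under 0.05, against 11.9% of all named genes. Slc2a1, the glucose transporter GLUT1, read 8.93, 8.37 and 8.82 in meniscus and 7.78, 8.0 and 7.80 in ligament, against 9.72, 9.60 and 9.59 in cartilage. The fibrous arrays all lay below cartilage, with a difference of −1.25 ± 0.18 (adjusted p = 0.00896). The prolyl hydroxylase Egln3, the carbonic anhydrase Car12 and the mitochondrial protein Higd1a, all known to be raised by low oxygen, fell too. Egln3 was at least 1.61-fold lower and Car12 at least 1.78-fold lower, with no ligament array above background, and Higd1a differed by −1.12. In ligament the bounds of Egln3 and Car12 were 1.17-fold and 1.48-fold. For Higd1a the meniscus arrays, at 9.10, 8.57 and 8.72, overlapped with the cartilage arrays, at 9.23, 9.23 and 9.07, and the ligament arrays read 7.10, 7.17 and 7.01. Vegfa, at −0.73, and Pgk1, at −0.44, did not pass. The count was 0 of 26 without cartilage replicate 2, without cartilage replicate 1 it was 1, and without meniscus replicate 2 or 3 or cartilage replicate 3 it was 2. With all arrays in, 23 of the 26 genes had a difference below 0 before centring, against 4276 of the 7234 named genes.

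**Figure D3:**
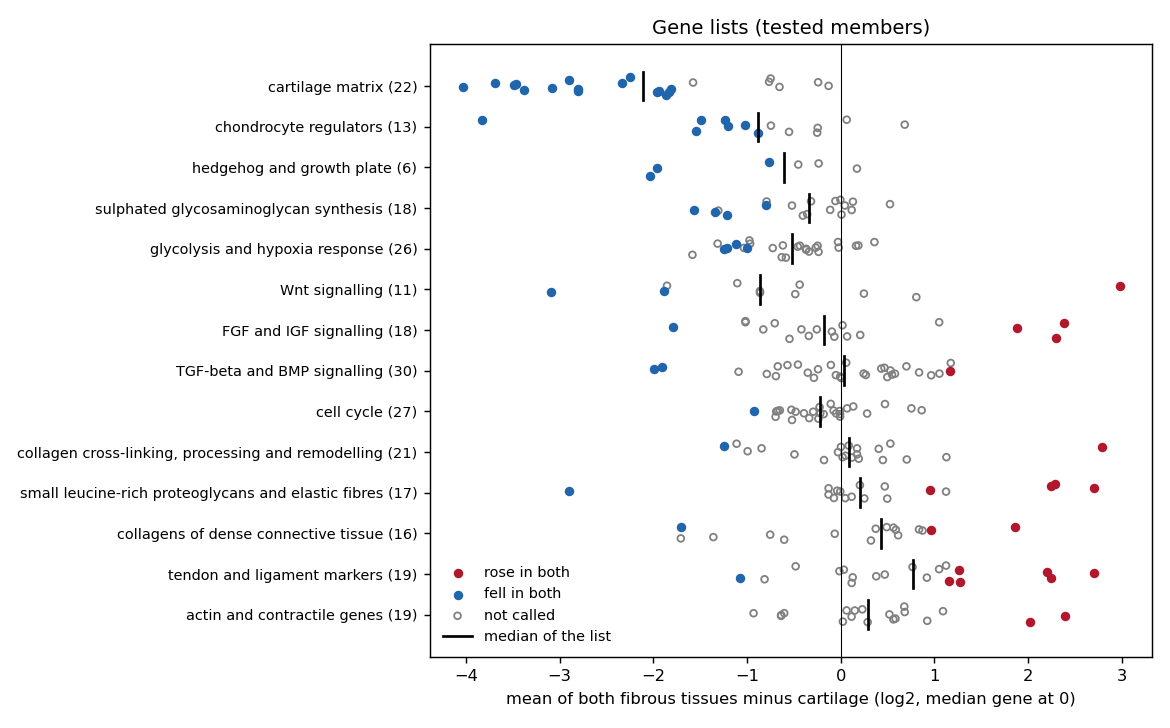
Each mark is a tested gene of the list named at the left, with the number tested in parentheses, placed at the mean of both fibrous tissues minus cartilage in log2 with the median gene at 0. Filled red marks rose and filled blue marks fell in both tissues, open marks were not called, and the bar is the median of the list, from −2.11 for the cartilage matrix to 0.77 for the tendon and ligament markers.

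The matrix of dense connective tissue rose in part. Of 19 tested tendon and ligament markers, 6 rose and 1 fell, with a median of 0.77. Aspn, the small leucine-rich proteoglycan asporin, read 7.86, 7.82 and 7.83 in meniscus and 8.07, 8.82 and 7.81 in ligament, against 5.85, 5.70 and 6.15 in cartilage. Thbs2, a thrombospondin of collagen fibril assembly, read 9.11, 8.79 and 9.05 in meniscus and 10.10, 10.09 and 9.24 in ligament, against 6.71, 7.25 and 7.94 in cartilage. All fibrous arrays lay above cartilage for both. Aspn differed by 2.24 ± 0.24 (adjusted p = 0.00449) and Thbs2 by 2.20 ± 0.30 (adjusted p = 0.00984). Kera, keratocan, a proteoglycan of cornea and tendon, read 7.15, 6.43 and 8.27 in meniscus and 7.37, 7.06 and 7.39 in ligament, against 5.38, 4.26 and 4.40 in cartilage, where 1 of 3 arrays was above background. Kera rose by 2.71 ± 0.40 (adjusted p = 0.0114, 6.52-fold). Postn, the matricellular protein periostin, rose by 1.15 ± 0.21 (adjusted p = 0.0283). Without cartilage replicate 2 the count was 1 of 19, with Thbs2 at an adjusted p of 0.0636 and Kera at 0.0736. It was 3 without cartilage replicate 1 or 3 or meniscus replicate 3.

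Of the transcription factors on that list, Mkx and Egr1 differed between the fibrous tissues. Mkx, the homeobox factor Mohawk of tendon, read 8.52, 8.60 and 8.74 in meniscus and 9.61, 9.79 and 10.10 in ligament, against 8.29, 7.58 and 8.34 in cartilage. The difference was 0.52 in meniscus (adjusted p = 0.48), 1.99 in ligament (adjusted p = 0.004) and 1.26 ± 0.22 for both (adjusted p = 0.0259), with the ligament higher than the meniscus (adjusted p = 0.0186). The Mkx call was lost without any 1 of the meniscus or cartilage arrays. Meox2, a mesodermal homeobox factor, rose by 1.27 ± 0.20 (adjusted p = 0.0184). Egr1, a zinc finger factor that responds to load and growth factors, fell by 1.07 ± 0.23 (adjusted p = 0.0249), and its meniscus arrays at 10.75, 10.71 and 10.27 overlapped with the cartilage arrays at 11.10, 10.70 and 10.61, while the ligament arrays read 9.05, 8.61 and 8.33. Scx, the scleraxis factor that marks tendon progenitors, was detected on 1 ligament array and on no other, and Tnmd, tenomodulin, on none, so 2 defining ligament markers were not tested here.

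Small leucine-rich proteoglycans and elastic fibre genes rose in part. Of 17 tested, 4 rose and 1 fell, with a median of 0.20. Mfap4, a microfibril protein, read 7.66, 7.38 and 7.53 in meniscus and 9.09, 9.40 and 9.40 in ligament, against 6.32, 6.40 and 5.97 in cartilage. The arrays formed 3 separate levels, the ligament highest, with a difference of 1.26 in meniscus (adjusted p = 0.031), 3.30 in ligament (adjusted p = 0.00032) and 2.29 ± 0.18 for both (adjusted p = 0.00139). Ogn, osteoglycin, rose by 0.95 ± 0.15 (adjusted p = 0.02), and its arrays were narrowly spread, at 9.75, 9.68 and 9.74 in meniscus and 9.64, 9.63 and 9.48 in ligament, against 8.79, 8.79 and 8.84 in cartilage. The gene of the list that fell was Prelp, described with the cartilage matrix, where it also stands. The call of Ogn was lost without any 1 of the meniscus or cartilage arrays. Without cartilage replicate 2 or 3, 2 of the 17 rose.

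Among enzymes of collagen cross-linking, processing and remodelling, 1 of 21 rose and 1 fell, with a median of 0.08. The shares over all named genes were 1.44% and 2.57%. Lox, lysyl oxidase, which joins collagen and elastin molecules, read 10.18, 9.85 and 9.91 in meniscus and 9.44, 10.21 and 9.79 in ligament, against 6.79, 6.50 and 8.36 in cartilage. It was higher on every fibrous array, by 2.78 ± 0.39 (adjusted p = 0.00984, 6.89-fold), with like differences of 2.73 in meniscus and 2.83 in ligament. Without cartilage replicate 1 or 2 the adjusted p of Lox was 0.0563 or 0.0593, and the list then had 0 rises. P4ha2, a collagen prolyl hydroxylase, fell by 1.25 ± 0.27 (adjusted p = 0.03), a call lost without any 1 of the meniscus or cartilage arrays.

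Few collagens of dense connective tissue passed. Of 16 tested collagens, 2 rose and 1 fell, with a median of 0.43. Col1a1, the main chain of type I collagen, read 9.61, 9.29 and 9.55 in meniscus and 10.59, 10.70 and 10.49 in ligament, against 9.39, 9.13 and 9.01 in cartilage. The ligament stood apart and the meniscus overlapped with cartilage, at 0.27 in meniscus (adjusted p = 0.67), 1.65 in ligament (adjusted p = 0.0038) and 0.97 ± 0.18 for both (adjusted p = 0.032). Col1a1 lost its call without any 1 of the meniscus or cartilage arrays, and Col1a2, Col3a1, Col5a1 and Col5a2 had values of 0.56, 0.37, 0.49 and 0.61 and did not pass. Col4a1, a collagen of basement membranes such as those around blood vessels, read 9.08, 9.35 and 9.08 in meniscus and 9.47, 9.35 and 9.30 in ligament, against 7.32, 7.38 and 7.84 in cartilage. It rose by 1.86 ± 0.19 (adjusted p = 0.00334), on all 6 fibrous arrays. Col16a1, a fibril-associated collagen, fell by 1.70 ± 0.33 (adjusted p = 0.0199), a call lost without meniscus replicate 2 or 3 or any 1 cartilage replicate.

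Other landmark genes of these tissues did not pass. Col2a1, the type II collagen of cartilage, read 10.01, 9.997 and 10.65 in meniscus and 10.66, 10.46 and 10.99 in ligament, against 11.17, 11.26 and 11.24 in cartilage. Every fibrous array was lower, yet the difference of −0.65 ± 0.21 had an adjusted p of 0.0841, and the 3 probes of Col2a1 ranged from −2.36 to −0.37 before centring. With the mean of its probes the adjusted p was 0.0355, and without ligament replicate 3 it was 0.0499. Dcn, decorin, had a difference of 1.12 ± 0.41 (adjusted p = 0.198), with 2 ligament arrays and 1 cartilage array above background. Tnc, tenascin C, had a difference of 0.03 ± 0.18 (adjusted p = 0.861), with the meniscus higher than the ligament (adjusted p = 0.021). Gdf5, the ligand that marks the joint interzone, read 6.32, 7.50 and 7.10 in meniscus and 4.34, 4.43 and 4.47 in ligament, where no array was above background, against 5.73, 6.61 and 7.43 in cartilage (adjusted p for both tissues = 0.216). For Prg4, the lubricin of joint surfaces, no probe was matched.

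The remaining leading rises were signalling and cytoskeletal genes. Akap5, a scaffold for protein kinase A, read 8.78, 7.80 and 8.26 in meniscus and 8.54, 9.21 and 9.92 in ligament, against 5.72, 5.65 and 6.61 in cartilage, a difference of 2.87 ± 0.36 (adjusted p = 0.00725). Plau, the urokinase plasminogen activator of matrix breakdown, read 6.99, 7.64 and 7.47 in meniscus and 8.61, 7.89 and 6.94 in ligament, against 4.67, 5.42 and 5.44 in cartilage, a difference of 2.52 ± 0.36 (adjusted p = 0.0106). Fibrous and cartilage arrays did not overlap for either gene, and 2 cartilage arrays were above background for Plau. Tmem255a, a membrane protein, Selenop, a selenium carrier, and Arap3, a GTPase activator of endothelial and blood cells, rose by 2.54, 2.23 and 2.20. Arap3 in ligament replicate 3, at 7.04, lay below cartilage replicate 3, at 7.22. Akap5 lost its call without cartilage replicate 2 (adjusted p = 0.0585), as did Plau (adjusted p = 0.059), and the call of Plau was lost without cartilage replicate 1 as well (adjusted p = 0.0626). Tmem255a, Selenop and Arap3 were not called without cartilage replicate 1 or 2. Selenop and Arap3 each kept the call under only 9 of 18 alternatives.

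Among contractile genes, 2 of 19 tested rose and 0 fell, with a median of 0.29, against 1.44% and 2.57% of all named genes. Myl9, a regulatory light chain of smooth muscle and non-muscle myosin, read 8.11, 7.45 and 6.80 in meniscus and 7.20, 6.36 and 7.07 in ligament, against 4.80, 4.68 and 5.16 in cartilage. It rose by 2.39 ± 0.31 (adjusted p = 0.00896), above cartilage on every fibrous array, with 1 cartilage array above background. Cald1, caldesmon, which binds actin and myosin, read 7.49, 7.01 and 7.60 in meniscus and 10.23, 9.99 and 9.16 in ligament, against 7.31, 6.76 and 5.95 in cartilage. Its meniscus arrays overlapped with cartilage, 1 of its 4 probes had a difference below 0 (−0.23 before centring), and the mean of the probes had an adjusted p of 0.358. Without cartilage replicate 2 the adjusted p was 0.059 for Myl9 and 0.0932 for Cald1, so that 0 of the 19 passed, and without meniscus replicate 3 or cartilage replicate 3, 1 did. Leaving out ligament replicate 3 gave 2 rises and 2 falls. Of 27 tested cell cycle genes, 0 rose and 1 fell, against 1.44% and 2.57% of all named genes. The fall was the inhibitor Cdkn1a, at least 1.25-fold lower (adjusted p = 0.0439), with no ligament array above background. Its call was lost under cyclic loess normalization. It was also lost without any 1 of the meniscus or cartilage arrays, while 3 genes of the list fell without ligament replicate 1 and 2 without ligament replicate 3.

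Some markers of cells other than chondrocytes and fibroblasts were also higher, though in several lists few or none passed in the mean of both tissues. Of 9 tested macrophage markers all had a positive difference, with a median of 1.39, 8 passed as higher before adjustment (unadjusted p under 0.05, 6.66% of all named genes) and 1 passed: Tyrobp, a signalling adaptor of myeloid cells, at 2.31 ± 0.50 (adjusted p = 0.0436). The mean of the list read 6.57, 7.89 and 7.54 in meniscus and 7.74, 6.22 and 5.33 in ligament, against 5.17, 5.19 and 5.44 in cartilage. Ligament replicate 3 thus lay within the cartilage range. C1qa, Fcer1g and Cd14 of that list were not above background on any array. Without ligament replicate 3, 4 of the 9 passed, and without any 1 of the meniscus or cartilage arrays 0 did. On the 6 meniscus and cartilage arrays alone, 5 of the 9 macrophage markers rose in meniscus.

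Of 9 tested endothelial markers 8 had a positive difference, with a median of 1.02, 5 passed as higher before adjustment and 0 after it. The list read 5.92, 6.65 and 6.24 in meniscus and 6.61, 6.08 and 5.26 in ligament, against 5.24, 5.21 and 5.24 in cartilage. Tie1, Eng and Sox18 were not above background on any array. Without ligament replicate 3, 4 of the 9 passed. On the 6 meniscus and cartilage arrays alone, 3 of the 9 endothelial markers rose in meniscus. On ligament replicate 3, 13 of the 14 leading rises read above every cartilage array, and Arap3 did not, at 7.04 against 7.22 on cartilage replicate 3. The 14 were chosen from these same arrays, ligament replicate 3 among them, so this count is no test of where the rises come from.

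Of 5 tested smooth muscle and pericyte markers, 3 rose and 1 fell, with a median of 1.17. Rgs5, a regulator of G protein signalling in pericytes, read 8.79, 9.19 and 8.56 in meniscus and 8.76, 9.64 and 9.43 in ligament, against 5.59, 6.27 and 7.49 in cartilage. It rose by 2.72 ± 0.40 (adjusted p = 0.011), and Mcam, an adhesion molecule of vessel walls, by 1.17 ± 0.20 (adjusted p = 0.0213). Myl9, described above, is the other rise. Cspg4, the proteoglycan NG2, fell by 1.07 ± 0.25 (adjusted p = 0.0377), chiefly in meniscus, where it read 6.53, 6.34 and 6.93, against 8.34, 8.16 and 7.52 in ligament and 8.72, 8.63 and 8.10 in cartilage. Acta2, smooth muscle actin, had a value of 0.29 and did not pass, and Tagln, Pdgfrb and Abcc9 were not above background on any array. The list read 7.74 to 7.98 in meniscus and 8.29 to 8.34 in ligament, against 6.98 to 7.31 in cartilage. Without cartilage replicate 2, 0 of the 5 rose, and without cartilage replicate 1, 1 did. On the 6 meniscus and cartilage arrays alone, 2 of the 5 rose and 1 fell in meniscus. Cspg4 was not called without any 1 of the meniscus or cartilage arrays.

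Haemoglobin genes, made by red blood cells, rose in part. Of 6 tested erythroid markers 3 rose, with a median of 1.15: Hba-a1 by 1.65 ± 0.28 (adjusted p = 0.02), Hbb-bt by 1.26 ± 0.22 (adjusted p = 0.0258) and Hbb-bs by 1.04 ± 0.22 (adjusted p = 0.0496). For Hba-a1 the meniscus arrays, at 8.22, 8.83 and 8.66, overlapped with the cartilage arrays, at 7.79, 8.49 and 7.24. Its difference was 0.70 in meniscus (adjusted p = 0.435) and 2.59 in ligament (adjusted p = 0.00315). The beta-globin genes are near-identical copies that probes may not tell apart, and Hbb-bs lost its call under cyclic loess normalization. The list read 8.81 to 9.20 in meniscus and 8.91 to 9.87 in ligament, against 7.75 to 8.41 in cartilage. Its calls were 0 without meniscus replicate 2 or 3 or cartilage replicate 1 or 3, and 1 without meniscus replicate 1 or cartilage replicate 2. Of 5 tested skeletal muscle markers 0 passed, and Myod1, Acta1 and Ckm were not above background on any array. No osteoblast marker was tested, with Sp7, Bglap and Alpl not above background on any array, and 1 nerve and 1 fat marker were tested without passing. On the 6 meniscus and cartilage arrays alone, 1 erythroid marker, 1 skeletal muscle marker and the fat marker rose in meniscus, and the nerve marker did not. The part that macrophage, vessel and blood cells have in the rises was not tested.

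**Figure D4:**
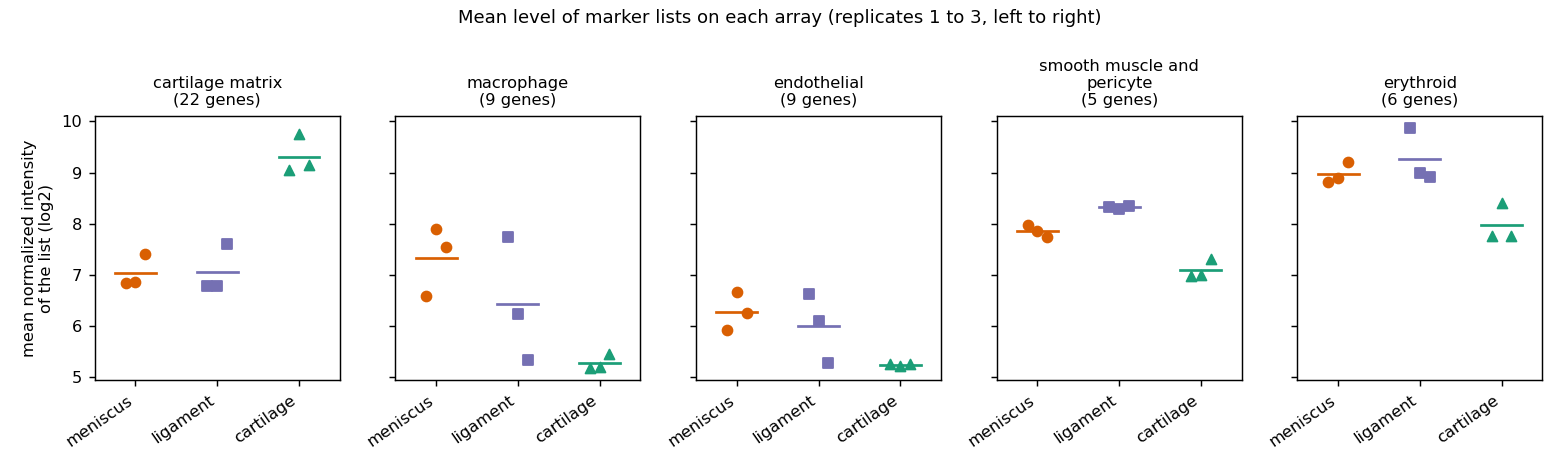
Each mark is an array, placed at the mean normalized log2 intensity of the tested genes of a list, with meniscus left, ligament in the middle and cartilage right, and the bar is the mean of the 3 arrays. Ligament replicate 3 lies within the cartilage range for macrophage markers and near it for endothelial markers, while the smooth muscle and pericyte list is above cartilage on all 6 fibrous arrays.

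The fibrous tissues also differed from each other in some shared genes. Of the 104 rises, 19 differed between meniscus and ligament, and of the 186 falls 86 did (limma, adjusted p under 0.05). Over all named genes 674 were higher in meniscus than in ligament (9.32%) and 190 were lower (2.63%). Among the 78 named genes, 55 passed in the same direction in meniscus minus cartilage on the 6 arrays of 1 set. All 78 had the same sign there, which was fixed in advance: the call required that sign, and both fits have the same tissue means. The 6 arrays also took part in choosing the 78 genes, so neither count is an independent test. The genes that failed included Col1a1, Mkx, Cald1, Egr1, Ugdh and Higd1a, each with an adjusted p of 0.259 or more. Those that passed included Lox (2.76 before centring, adjusted p = 0.0167), Rspo2 (3.13, adjusted p = 0.00797), Wif1 (−3.05, adjusted p = 0.00335) and Gli1 (−2.07, adjusted p = 0.00531).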

How the data were processed

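Illumina bead arrays of 9 samples, 3 each of meniscus, cruciate ligament and articular cartilage, were used. The deposited scanner tables hold a signal intensity and a detection p-value for each probe, per the file headers. The submitters' processing notes name GenomeStudio without a version. A second deposited table holds the authors' processed intensity, in 2 sets normalized separately with medians of 99.9 to 100.0 and of 172.2 to 172.3, by a method not given in the sources used here. It served to name probes and as an alternative. Scanner rows carry no gene names, so each of 45281 was paired with a row of that table by its ranks on the 9 arrays. Every row found its own partner, with a median largest rank difference of 96.0, against 4549.5 to the second nearest. The platform annotation gave 34885 probes 1 symbol, 18 several and 10378 none, and 34807 matched the RefSeq gene table of GRCm38.p6, used for names.

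Intensities were background-corrected with the neqc function of limma 3.58.1 in R 4.3.3 (offset 16, negative controls inferred from the detection p-values), then taken to log2 and quantile normalized jointly for all 9 arrays. Probes with a detection p under 0.01 on all 3 arrays of at least 1 tissue were kept, 12538 in all. The brightest kept probe stood for a gene, giving 9166 features, of which 7234 were named genes. Of the 290 genes called, 93 had more than 1 probe and 9 a probe of opposite sign. Among the unnamed probes, 21 rose and 51 fell.

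Tissue means were fitted with limma's lmFit and eBayes over the 9 arrays with 1 shared spread, with Benjamini-Hochberg adjustment of each contrast over all features. Where a probe was not above background in a tissue on any array, the bound sets the bright mean against the dim mean of, per array, the higher of the lowest detected signal and the probe's own, relative to the median gene. The number of arrays limits the precision. Tested on simulated data with the same features and spreads, the fit recovered 29 of 100 genes changed by 1 log2 and 80 of 100 changed by 2, with 7 false calls among 9166 features.

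Genes were named by rule: the 14 rises and 14 falls with the largest value of the smaller tissue difference (bounds used for dim tissues), called members of the lists, and the landmarks. The members, the lists and this rule were chosen with earlier results of these data known. The labels do not say whether replicate numbers pair the arrays. Same-numbered arrays of meniscus and cartilage correlated in their deviations at 0.08, 0.151 and 0.021, against −0.126 to 0.038 for unlike numbers. Same-numbered arrays of ligament and either other tissue correlated at −0.03 to 0.01. Alternatives covered normalization, background, the authors' values, probe filters, probe averaging, unequal spread, centring, a replicate block, each array left out and stricter calls.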

Additional observations from a re-analysis of the deposited data

Results flagged for a closer look

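Among the genes described above, 23 differed between the fibrous tissues themselves, by limma's test of meniscus minus ligament over all 9 arrays (adjusted p 0.0021 to 0.0401). All values are log2 differences, meniscus minus ligament, relative to the median gene. Measured in both, the genes higher in meniscus were Scrg1 at 2.20, Egr1 at 1.64, Higd1a at 1.44, Sox5 at 1.20, Fgfr2 at 1.15, Ugdh at 1.09, Sox9 at 0.72, Tnc at 0.68 and Slc2a1 at 0.58. For 6 more, no ligament array read above background, so the fitted values are not measured sizes. Gdf5 (fitted 2.30) was at least 1.76-fold higher in meniscus and Gdf10 (fitted 1.82) at least 1.46-fold. Cdkn1a, Dlx5, Fam20b and Smo, fitted at 1.18, 1.01, 0.73 and 0.61, were too dim for a bound. Apart from Gdf5 and Tnc, which did not pass, these were called as falls in the mean of both tissues, with the ligament lower. The meniscus minus cartilage differences of Egr1, Ugdh, Cdkn1a and Higd1a were only −0.26, −0.26, −0.34 and −0.41. They did not pass in meniscus by themselves (adjusted p 0.572 to 0.835 in limma).

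The genes lower in meniscus were Cald1 at −2.69, Mfap4 at −2.04, Hba-a1 at −1.89, Cspg4 at −1.68, Mkx at −1.48, Col1a1 at −1.38 and Mcam at −1.26. For Chrdl1 no meniscus array read above background, and it was at least 3.44-fold lower there (fitted −2.20). Of these 8, Cspg4 was called as a fall and the other 7 as rises in the mean of both tissues, with the ligament higher. The ligament arrays form a set of their own, so set and tissue cannot be told apart in any of these differences.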

How the results depend on the processing

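Against 104 rises and 186 falls, both counts stayed within 1.5 times under cyclic loess normalization, no background correction, the authors' values, the mean of probes, centred arrays and without ligament replicate 2. Falls numbered 118 with no filter on dim probes and 91 with only probes detected on all 9 arrays (fewer genes tested). Rises numbered 84 and 121 under these 2 settings. Separate spreads per tissue gave 160 rises and 290 falls, of which 103 and 185 were shared. With the replicate number as a block there were 62 rises and 99 falls, 59 and 98 of them shared. The labels do not say whether the numbers pair the arrays, and not every array correlated best with its own number. Each tissue called by itself gave 19 rises and 20 falls. Meniscus minus cartilage on 6 arrays alone gave 113 falls, 68 shared, and 145 rises, 58 shared. Leaving out 1 array gave between 9 and 158 rises and between 23 and 288 falls, lowest without cartilage replicate 2. Direction was kept by all 78 called genes named. Of them, 61, 48 and 41 lost the call without cartilage replicates 2, 1 and 3, 36, 31 and 25 without meniscus replicates 3, 2 and 1, 21 with no filter, 19 under the block, and at most 8 under each other normalization, probe or centring choice or without 1 ligament array. Tnc, which did not pass, changed sign: without 1 array its difference before centring lay between −0.16 and 0.0316, the highest without cartilage replicate 3 (adjusted p = 0.967), against −0.07 with all arrays. The cause of these losses was not tested. Low signal in the ligament limits the falls: for 107 of 186 no ligament array read above background, and those sizes are bounds.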

Other observations

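The following genes and lists were chosen after their values were seen. Other matrix and matricellular genes rose in both fibrous tissues. Abi3bp, a matrix protein that binds collagen, read 8.41, 8.47 and 8.04 in meniscus and 9.22, 9.17 and 8.94 in ligament, against 7.07, 6.98 and 7.06 in cartilage, a log2 difference of 1.78 ± 0.18 relative to the median gene (SE, adjusted p = 0.00334 in limma). Ccdc80, a secreted matrix protein, rose by 1.84 ± 0.22 (adjusted p = 0.00717), Htra1, a secreted serine protease, by 1.70 ± 0.21 (adjusted p = 0.00725) and Ptn, the heparin-binding growth factor pleiotrophin, by 1.62 ± 0.19 (adjusted p = 0.00679). Vcan, versican, the large proteoglycan of loose and fibrous tissue, read 10.79, 10.32 and 10.47 in meniscus and 10.12, 10.23 and 10.09 in ligament, against 9.32, 8.93 and 9.24 in cartilage. It rose by 1.28 ± 0.18 (adjusted p = 0.0121). The proteases Adamts1 and Adamts4, which cut versican and aggrecan, rose by 1.65 ± 0.30 (adjusted p = 0.0255) and 1.97 ± 0.32 (adjusted p = 0.0169). Versican and aggrecan, related proteoglycans, thus moved in opposite directions.

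Among falls outside the lists, Moxd1, a monooxygenase, read 5.94, 5.44 and 5.05 in meniscus and 4.62, 4.49 and 4.49 in ligament, against 8.17, 8.44 and 8.10 in cartilage, at least 5.44-fold lower (adjusted p = 0.000853). Rflna, a filamin regulator of the skeleton, was at least 4.25-fold lower (adjusted p = 0.00291) and Adgrg6, an adhesion receptor of cartilage and nerve, at least 1.96-fold lower (adjusted p = 0.00449). Of 9 tested genes of cholesterol synthesis, 3 fell (Idi1, Fdps and Lss), with a median of −0.59. In the mean of both tissues all 9 were below 0 before centring, as were 4276 of the 7234 named genes. In meniscus Sqle and Hsd17b7 were above 0, at 0.17 and 0.12 before centring. For Fdps and Lss no ligament array read above background. Idi1 read 9.36, 9.30 and 9.22 in meniscus and 8.13, 7.50 and 7.81 in ligament, against 9.59, 9.66 and 9.40 in cartilage, so most of its difference lay in the ligament. Of 19 tested immediate early genes, 2 fell (Egr1 and Egr3), with a median of −0.16.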
